A study of Rattus norvegicus with 10 samples.

Results

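Genes grouped as markers of alternative activation were followed in peritoneal macrophages of rats with and without myelin. Macrophages take up this state under interleukin-4 and interleukin-13. The genes were Mrc1, Clec10a, Cd163, Tgm2, Retnla, Tgfb1, Tgfbr1 and Tgfbr2, and every probe set of the array whose annotation gives exactly 1 of these symbols was taken. This gave 9 probe sets of 7 of the 8 genes, among 31042 probe sets tested and 14217 genes named by a single symbol. No probe set carries the symbol Tgfbr2, the type II receptor of TGF-β, which is not analysed here. The study put resident peritoneal macrophages of Wistar rats (strain Hsdcpb:WU, 200 to 224 grams) on 10 Affymetrix arrays. Control macrophages (n = 5) were cultured for 3 days without myelin and mye-macrophages (n = 5) for 3 days with 100 µg/ml of myelin isolated from brain. Myelin was washed off, and all 10 cultures were then stimulated over 9 hours by IFNγ together with IL-1β at 100 ng/ml, so there is no unstimulated and no interleukin-4 treated sample to set the levels against. The ages of the animals and whether the samples of a group come from separate animals are not given in the sources used here. The p-values therefore refer to the spread of these samples only. In the fit blocked by replicate number, this is the spread of the differences between samples with the same number.

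Classically activated macrophages are driven by IFNγ, and alternatively activated ones by interleukin-4 and interleukin-13, which act through the transcription factor Stat6. Mrc1 (the mannose receptor CD206) and Clec10a (a lectin for galactose-type sugars) mark such cells at the surface. Cd163 (the scavenger receptor for hemoglobin bound to haptoglobin) is a surface protein often listed with them. Tgm2 encodes a transglutaminase that cross-links proteins, and Retnla a small secreted protein that interleukin-4 induces in rodents. TGF-β1, encoded by Tgfb1, signals through a receptor pair in which Tgfbr1 is the type I kinase, and it takes part in tissue repair and in the damping of inflammation.

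Of the members, Mrc1 rose in mye-macrophages, both probe sets of Tgm2 had higher values in every pair without passing the test, and no other member passed. Samples with the same replicate number varied together over the whole array, so they are called a pair and the number was a block in the limma fit. Of the 9 probe sets, 7 lay in the 50% with the larger interquartile range, over which p-values were adjusted. Of these 1 was called, at an adjusted p under 0.05, against 2.69% of the 15521 filtered probe sets. It was higher, as 0.792% were (123), and 0 were called lower, as 1.90% were (295). With p-values adjusted over all probe sets, 0 of the 9 were called in limma, against 0.412%. At an unadjusted p under 0.05 the blocked fit listed 3 of the 9, all higher, against 12.1%. Control and mye-macrophage values overlapped in each of the 9 probe sets, and 0.734% of all probe sets had no overlap. Without the block limma called 0 of the 9 probe sets, and 0 of them had an unadjusted p under 0.05, against 4.46% of all. An unpaired test on single probe sets, as the methods name it, called 0 as well at an adjusted p under 0.05. The methods name no adjustment of p-values, and the study reports altered genes in both directions. The median absolute log2 fold change was 0.13 over the 9 probe sets and 0.08 over all probe sets.

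**Figure D1:**
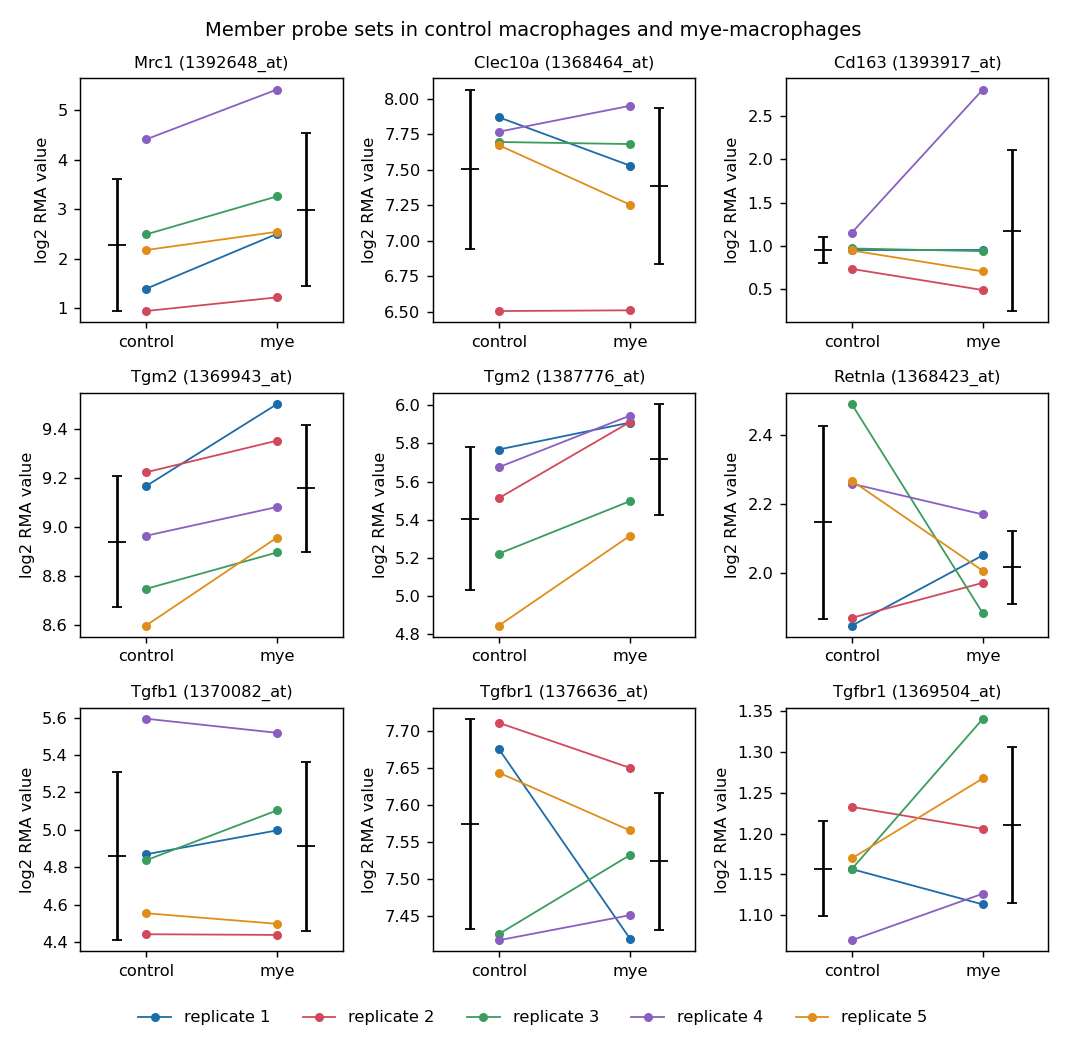
Log2 RMA values (y axis, own scale in each panel) of the 9 member probe sets in control macrophages and mye-macrophages. Coloured lines join the samples with the same replicate number and black bars give the mean ± SD of 5 samples. All 5 lines climb for Mrc1 and for both Tgm2 probe sets, and in every panel the groups overlap.

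Among the surface markers, Mrc1 was 1.63-fold higher in mye-macrophages, and the pairs lay much farther apart than the groups. In control macrophages its log2 values were 1.40, 0.95, 2.49, 4.41 and 2.18 for replicates 1 to 5. In mye-macrophages they were 2.51, 1.22, 3.26, 5.42 and 2.55 in the same order. Replicate 4 was the highest and replicate 2 the lowest of both groups, and the groups overlapped widely. Control replicates 1, 2 and 5 and mye-macrophage replicate 2 lay under the median of their arrays, replicate 2 near the level of Cd163. Within pairs the mye-macrophage sample was higher in 5 of 5, by 1.11, 0.28, 0.77, 1.01 and 0.37. The mean log2 value was 2.29 ± 1.34 without myelin and 2.99 ± 1.54 with it (SD, n = 5 each). The blocked limma fit gave a log2 fold change of 0.71 (standard error 0.12, 95% interval 0.43 to 0.99, adjusted p = 0.0265). The adjusted p was 0.0530 over all 31042 probe sets and 0.935 in limma without the block. Without the pair of replicate 1, 2, 4 or 5 the log2 fold change was 0.61, 0.81, 0.63 or 0.79 and the call was lost (limma adjusted p = 0.0955, 0.0510, 0.0842 and 0.0633).

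Some markers of other cells varied over the samples together with Mrc1, as did some lists that do not mark other cells. The summed signal of 10 measured genes of granulocytes and mast cells (log2 of the sum) ran from 4.95 to 8.34 in control macrophages and from 5.03 to 8.41 in mye-macrophages. As for Mrc1, replicate 4 was highest and replicate 2 lowest in both groups. The same held for the sum of 4 measured genes of dendritic cells, from 5.53 to 6.76 in control macrophages and from 5.66 to 6.54 in mye-macrophages, and replicate 4 was also highest in both groups for mesothelial cells and fibroblasts. The order was not particular to markers of other cells. Other markers of alternative activation had it too (10.72 to 12.22 in control macrophages, 10.99 to 12.09 in mye-macrophages). So did the lists of TGF-β ligands and of transglutaminases, and replicate 2 was lowest in both groups for the macrophage markers. In pair 1, which had the largest difference in Mrc1, the sum for granulocytes and mast cells was 6.96 in the mye-macrophage sample and 5.76 in the control. In pair 4, where Mrc1 differed by 1.01, the sum was 8.41 and 8.34. Mrc1 was higher with myelin in every pair. The sum was also higher with it in pair 2 (5.03 against 4.95) and lower in pairs 3 and 5 (5.48 against 5.53, and 5.82 against 6.16). Cpa3, a protease gene of mast cells, had log2 values of 6.30 and 4.70 in pair 1, and 7 of the 10 genes had means under the median of all values. Log2 fold changes were above 0 in 9 of the 10 genes and below 0 in 1, with a median of 0.12. None of the 10 was called in limma, 0 had an unadjusted p under 0.05, and Cpa3 had a log2 fold change of 0.13 (limma adjusted p = 0.819). Their part in the Mrc1 result was not tested. The 3 measured genes of microglia, the macrophages of the brain from which the myelin came, all lay under the median of all values and had log2 fold changes of -0.12 to -0.04. Of 6 measured genes of astrocytes 1 was called, 3 had higher and 3 had lower values, and the median log2 fold change was 0.0087. The called one was Slc1a3, a glutamate transporter gene, which rose by 0.91 on its brightest probe set (limma adjusted p = 0.0247). Gja1 had -0.62 (limma adjusted p = 0.141, higher in 1 of 5 pairs) and Aldoc 0.47 (limma adjusted p = 0.113). Slc1a3 was highest in replicate 4 of both groups (5.74 and 4.78), and its part in the Mrc1 result was not tested either. Its call was lost without the pair of replicate 1, 2, 4 or 5, and its dimmer probe sets had 0.17 and 0.12 and did not pass. In bulk samples of this kind, more cells that express a gene and more of its RNA per cell cannot be told apart.

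The probe sets most like Mrc1 over the 10 arrays were those of Fbxw2, Edil3 and Syngr1, with Pearson correlations of 0.988, 0.980 and 0.979. These values are a description, since all arrays share the variation between pairs. Edil3 and Syngr1 had log2 fold changes of 0.47 and 0.57, and Fbxw2 had 0.07. The mean of Edil3, 2.19, lay under the median of all values. Among the members themselves, Mrc1 was most like Tgfb1 (0.878) and Cd163 (0.807) over the arrays and least like the brighter Tgfbr1 probe set (-0.747). The value for Cd163 includes mye-macrophage replicate 4, the only sample in which Cd163 stood off the lower end (2.81).

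The promoter of Mrc1, the called member, is shown with that of Retnla, the classical Stat6 target of the set. Both are reference sequence of RefSeq in build GRCr8, from 250 bases before to 50 after the gene start, read 5′ to 3′ along the gene. The table of promoters holds 6 of the 8 genes and has no entry for Clec10a and Tgm2. Capitals mark matches, on either strand, to 4 motifs: TTC and GAA with 4 letters between (Stat6), GAGGAA (the core of PU.1 sites), AGGTCA (a half-site of nuclear receptors) and CAGACA (Smad). Mrc1 lies at chr17:82157475-82157774 on the plus strand and Retnla at chr11:65426137-65426436 on the minus strand.
Mrc1: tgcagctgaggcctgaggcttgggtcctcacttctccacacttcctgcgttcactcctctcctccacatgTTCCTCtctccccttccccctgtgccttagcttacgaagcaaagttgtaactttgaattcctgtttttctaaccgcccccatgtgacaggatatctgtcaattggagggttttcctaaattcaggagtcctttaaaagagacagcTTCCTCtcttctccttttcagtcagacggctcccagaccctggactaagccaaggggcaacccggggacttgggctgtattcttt
Retnla: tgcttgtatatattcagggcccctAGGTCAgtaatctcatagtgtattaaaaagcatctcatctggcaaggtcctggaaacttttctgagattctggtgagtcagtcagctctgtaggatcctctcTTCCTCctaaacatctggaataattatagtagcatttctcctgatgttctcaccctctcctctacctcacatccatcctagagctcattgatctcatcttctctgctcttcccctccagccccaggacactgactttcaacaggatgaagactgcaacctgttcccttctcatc
The Mrc1 window holds the PU.1 core 2 times, both on the opposite strand, and the Retnla window holds it once beside 1 AGGTCA. Of 33469 rat promoter windows, 27.6% hold GAGGAA and 16.2% AGGTCA. The letters of the Stat6 motif are in neither window and are in 7.3% of all windows, and CAGACA is in 21.1%. None of the 4 was found in the windows of Cd163, Tgfb1 and Tgfbr1, and that of Tgfbr2 holds GAGGAA once. A match is a string of letters and not a measured binding site.

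Clec10a lay well over the median of all values and did not pass. Its log2 values were 7.87, 6.51, 7.69, 7.77 and 7.67 in control replicates 1 to 5. They were 7.53, 6.51, 7.68, 7.95 and 7.25 in mye-macrophages. Replicate 2 was the lowest sample of both groups, which overlapped, and 2 of 5 pairs were higher with myelin. The log2 fold change was -0.12 (95% interval -0.33 to 0.10, limma adjusted p = 0.533). Whether the changes of Mrc1 and Clec10a differ was not tested. The probe sets most like Clec10a over the 10 arrays were those of Selp, Fcgr2b and Yme1l1 (Pearson correlations of 0.986, 0.975 and 0.972). That of Selp had a mean of 0.47, near the lower end of the array values.

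Cd163 lay near the lower end of the array values in all but 1 sample. Control macrophages had log2 values of 0.94, 0.73, 0.97, 1.15 and 0.94, and mye-macrophages 0.94, 0.49, 0.94, 2.81 and 0.70. Mye-macrophage replicate 4 alone stood out, and its pair was the only 1 of 5 with a higher value under myelin. The log2 fold change was 0.23 (95% interval -0.32 to 0.77), and it was -0.13 without the pair of replicate 4. Cd163 lay outside the variance filter, and over all probe sets the limma adjusted p was 0.764. The same pair had the highest Mrc1 values.

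**Figure D2:**
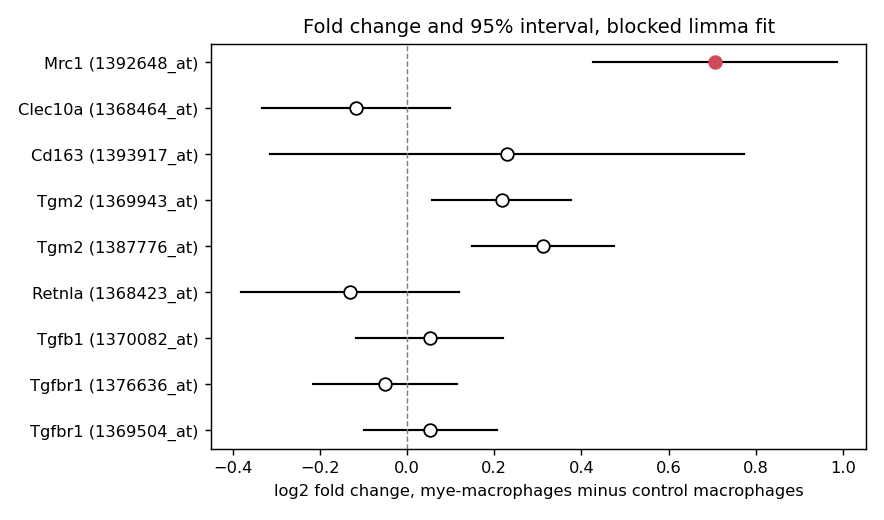
Log2 fold change of mye-macrophages against control macrophages (x axis) for the 9 member probe sets, with 95% intervals of the blocked limma fit. The filled point is Mrc1 (0.71), which was called, and open points were not. The intervals of both Tgm2 probe sets lie above 0, and that of Cd163 is the widest.

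Of the effector genes, Tgm2 was higher in 5 of 5 pairs on both of its probe sets, with small changes that did not pass. The brighter probe set had log2 values of 9.17, 9.22, 8.75, 8.96 and 8.60 in control replicates 1 to 5. The mye-macrophage values were 9.50, 9.35, 8.90, 9.08 and 8.96. Every pair moved up, by 0.12 to 0.36, while the groups overlapped. The log2 fold change was 0.22 (1.16-fold, standard error 0.07, 95% interval 0.06 to 0.38), with a limma adjusted p of 0.135. On the dimmer probe set the values were 5.77, 5.51, 5.22, 5.68 and 4.84 in control macrophages and 5.91, 5.91, 5.50, 5.95 and 5.32 in mye-macrophages. The pairs differed by 0.14 to 0.47. Its log2 fold change was 0.31 (1.24-fold, standard error 0.07, 95% interval 0.15 to 0.47), and the limma adjusted p was 0.0545. With a variance prior that follows the mean and resists outliers, both probe sets passed (limma adjusted p = 0.0222 and 0.0169), where 387 probe sets of all were called higher.

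Both probe sets of Tgm2 varied alike, with a Pearson correlation of 0.843 over the 10 arrays. The genes most like the brighter one were Mrpl27, Dusp23 and Cltb (0.966, 0.961 and 0.958). Together with Mrc1 they make 3 of 9 member probe sets that were higher in 5 of 5 pairs, where 6.16% of all probe sets were, and 0 of the 9 were lower in 5 of 5, where 6.84% were. Both probe sets belong to 1 gene and are not independent. Against Mrc1 the level of Tgm2 varied little between pairs. The SD of the pair means was 0.26 and 0.33 for the probe sets of Tgm2 and 1.43 for Mrc1. The SD of the pair differences was 0.12 and 0.13 for Tgm2 and 0.37 for Mrc1.

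Retnla had low values in both groups and did not pass. Control macrophages had log2 values of 1.85, 1.87, 2.49, 2.26 and 2.27, and mye-macrophages 2.05, 1.97, 1.88, 2.17 and 2.01. The mye-macrophage values lay within the range of the controls, and 2 of 5 pairs were higher with myelin. The log2 fold change was -0.13 (95% interval -0.38 to 0.12, limma adjusted p = 0.551), and it was -0.01 without the pair of replicate 3. Its mean of 2.08 lay under the median of all values. Its pair means varied less than its pair differences (SD 0.14 and 0.32), the reverse of Mrc1, Clec10a, Tgm2 and Tgfb1. Differences vary more than means even where pairs share nothing, so this order alone does not show that pairs varied apart. Control and mye-macrophage values of Retnla had a Pearson correlation of -0.24 over the 5 pairs. Retnla was most like Nmrk2, Tnnt3 and Mau2 over the 10 arrays (Pearson correlations of 0.964, 0.946 and 0.932). Their means of 1.12, 0.87 and 2.11 also lay under the median.

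**Figure D3:**
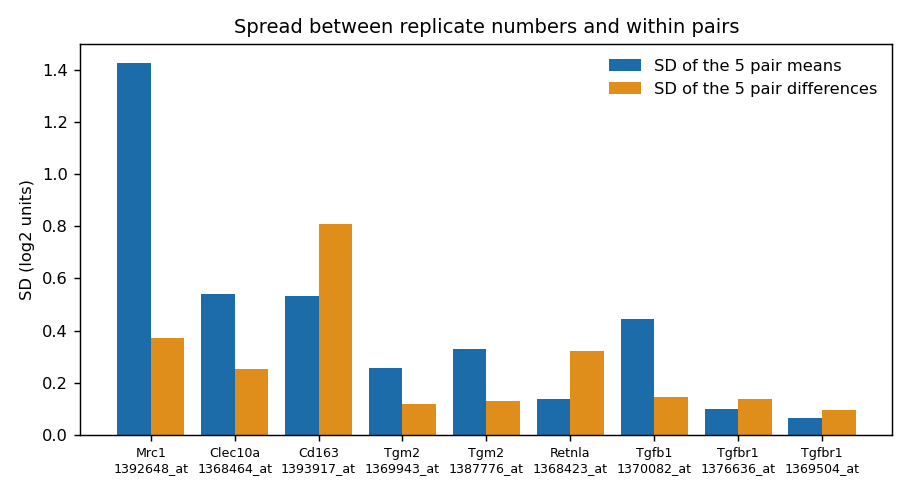
Spread of each member probe set in log2 units (y axis, from 0). Blue bars give the SD of the 5 pair means, that is between replicate numbers, and orange bars the SD of the 5 differences between mye-macrophages and control macrophages. Mrc1 has the tallest blue bar (1.43 against 0.37), and in Cd163, Retnla and both Tgfbr1 probe sets the orange bar is the taller one. Differences vary more than means even where pairs share nothing, so a taller orange bar does not show that pairs varied apart.

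The TGF-β members did not pass. Tgfb1 had log2 values of 4.87, 4.44, 4.84, 5.59 and 4.55 in control macrophages. In mye-macrophages it had 5.00, 4.44, 5.10, 5.52 and 4.50. Replicate 4 was again the highest of both groups, and the pairs differed by -0.08 to 0.27. The log2 fold change was 0.05 (95% interval -0.12 to 0.22, limma adjusted p = 0.737), and the groups overlapped throughout. The genes most like Tgfb1 over the 10 arrays were Csf2rb, Eef1b2 and Chmp3 (Pearson correlations of 0.986, 0.973 and 0.968).

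Tgfbr1 was measured by a bright and a dim probe set. The bright one had log2 values of 7.68, 7.71, 7.43, 7.42 and 7.64 in control macrophages and 7.42, 7.65, 7.53, 7.45 and 7.57 in mye-macrophages. All 10 samples lay within 0.29 of each other. The log2 fold change was -0.05 (95% interval -0.22 to 0.11, limma adjusted p = 0.738). The SD of its pair means, 0.10, was the smallest among the 6 member probe sets with a mean over the median of all values. The dim probe set, outside the variance filter, had 1.07 to 1.23 in control macrophages and 1.11 to 1.34 in mye-macrophages, with a log2 fold change of 0.05 (95% interval -0.10 to 0.21). The bright probe set was most like those of Btaf1, Cep43 and Cct3 (Pearson correlations of 0.956, 0.952 and 0.949).

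Around the members, genes of interleukin-4 signaling and of TGF-β signaling were mostly without a call, and those that were called fell. Each gene of these lists stands by its brightest probe set, and of all genes in the filter 1.12% were called higher and 1.58% lower (1.39% of all genes in or out of it were called). The share of all probe sets with an unadjusted p under 0.05 in the blocked limma fit was 12.1%, for comparison with the unadjusted counts of the lists. It was not computed over the brightest probe set of each gene, which the lists use, so the comparison is of unlike sets. Of 25 measured other markers of alternative activation 1 fell and 24 did not pass, with a median log2 fold change of 0.04 against 0.01 over all genes. At an unadjusted p under 0.05 the blocked limma fit listed 9 of the 25, of which 6 had lower and 3 higher values. The one that fell was Ccl22, a chemokine gene that attracts regulatory T cells, by 0.73 on the log2 scale (limma adjusted p = 0.0484) and by 0.92 on a dimmer probe set (limma adjusted p = 0.0211). The call of the brighter one was lost without any 1 of the 5 pairs. The histone demethylase gene Kdm6b (-0.37), Lyve1 (-0.33), the chemokine gene Ccl24 (-0.71) and Il10 (-0.38) did not pass (limma adjusted p from 0.0538 to 0.0690). The genes with higher values did not pass either. These were Chi3l1 (0.60, limma adjusted p = 0.0981, higher in 5 of 5 pairs), the growth factor gene Igf1 (0.47, limma adjusted p = 0.203) and Ppargc1b (0.25, limma adjusted p = 0.193). The arginase gene Arg1 had 0.22 (limma adjusted p = 0.546).

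Of 16 measured genes of interleukin-4 and interleukin-13 receptors and Stat6 signaling none passed, with a median of -0.04. At an unadjusted p under 0.05 the blocked limma fit listed 3 of them, against 12.1% of all probe sets. These were Stat6 (-0.33, limma adjusted p = 0.0747) and the receptor gene Il4r (-0.22, limma adjusted p = 0.110), lower in 5 of 5 pairs, and the gene of the ligand Il4 (0.19, limma adjusted p = 0.157), higher in 5 of 5. The mean of Il4, 1.33, lay under the median of all values and near the lower end of the array values.

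The TGF-β lists gave 1 call. Among 12 genes of ligands and ligand activation, Mmp9, a matrix protease gene that can release latent TGF-β, fell by 0.36 (limma adjusted p = 0.0398, lost without any 1 of the 5 pairs), with -0.32 on another probe set that did not pass. Tgfb2 had 0.51 (limma adjusted p = 0.0714), with -0.20 on a dimmer probe set. None of 18 further receptors and signal transducers passed on the brightest probe set, where Bmpr2 had -0.55 (limma adjusted p = 0.0619) and Smad4 -0.21, while the dimmer of 2 probe sets of Smurf2, a ubiquitin ligase gene that acts on TGF-β receptors, fell by 0.43 (limma adjusted p = 0.0473; -0.09 on the brightest). None of 11 TGF-β target genes passed, and their median was -0.07. At an unadjusted p under 0.05 the blocked limma fit listed 2 of the 12, 3 of the 18 and 1 of the 11, Pmepa1 (-0.29), against 12.1% of all probe sets.

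None of 10 further transglutaminases and partners of Tgm2 was called in limma, and 1 had an unadjusted p under 0.05. This was F13a1, a transglutaminase gene often used as a marker of alternative activation, with -0.33 (limma adjusted p = 0.170). Blvra, which encodes a biliverdin reductase of heme breakdown, was the 1 of 8 genes around hemoglobin uptake that rose, by 0.44 (standard error 0.08, limma adjusted p = 0.0273) in 5 of 5 pairs. Its call was lost without the pair of replicate 1, 2, 4 or 5, and 2 of the 8 had an unadjusted p under 0.05. Hmox1, the heme oxygenase gene upstream of it, had a log2 fold change of 0.0019.

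Of 21 measured markers of classical activation 3 fell and 0 rose in mye-macrophages. At an unadjusted p under 0.05 the blocked limma fit listed 10 of the 21, against 12.1% of all probe sets, and of the 10 there were 6 with lower and 4 with higher values. Il6 fell by 0.89 (standard error 0.09, limma adjusted p = 0.00409), and this call held without each pair. Tnf fell by 0.47 (limma adjusted p = 0.0305, lost without the pair of replicate 2, 4 or 5), with -0.05 on a dimmer probe set. Ido1 fell by 0.38 (limma adjusted p = 0.0452, lost without any 1 pair). Its mean was 2.61 in control macrophages and 2.23 in mye-macrophages, the latter under the array medians. Cd86, a costimulatory ligand gene, fell by 0.54 on its dimmer probe set (limma adjusted p = 0.0435) and had -0.50 on the brightest, which did not pass. Ciita, the regulator of MHC class II genes, had 0.49 (limma adjusted p = 0.0545), Il12a 0.34 and Cxcl10 0.29, and none of these 3 passed, although each was higher in 5 of 5 pairs. The mean of Il12a, 1.62, lay under the median of all values. Nos2, the inducible nitric oxide synthase gene, had 0.08 and lay outside the variance filter. Without the block limma called none of the genes named in these lists.

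**Figure D4:**
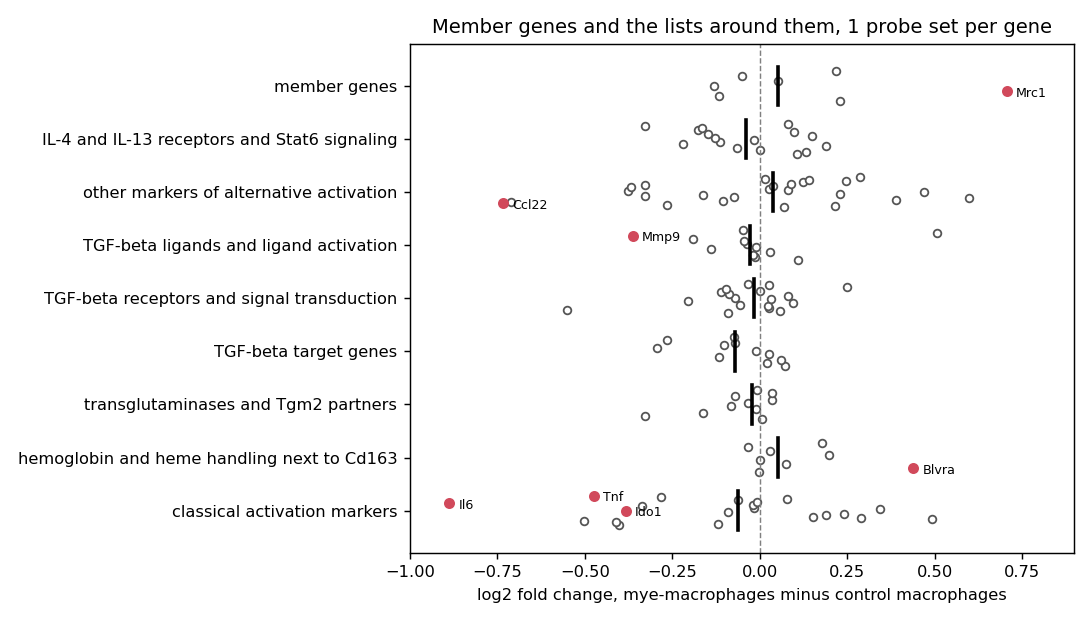
Log2 fold changes (x axis) of the measured member genes and of the 8 lists around them, 1 point per gene by its brightest probe set, and a black bar at each median. Filled points with a name were called in the blocked fit. Mrc1 is the called gene farthest to the right, and Il6 and Ccl22 are those farthest to the left.

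The cells carried the macrophage genes of their label. On the brightest probe set all 9 measured markers, among them Lyz2, Cd68 and Cd14, lay over the median of all values. Gata6 was at the margin, with a mean of 2.33, and its other probe set had a mean of 1.69, under the median. The summed signal of the 9 markers ran from 13.01 to 13.46 in control macrophages and from 13.16 to 13.56 in mye-macrophages. None of the 9 was called in limma, with 1 at an unadjusted p under 0.05. Of the other lists, dendritic cells, lymphocytes, mesothelial cells and fibroblasts, and endothelial cells gave 0 calls in the blocked limma fit. At an unadjusted p under 0.05 these were 1, 1, 0 and 0 genes. Among the oligodendrocyte and myelin genes, 2 of 13 measured rose, and the list had a median of 0.08. Mobp and Bcas1 rose by 3.60 and 1.76 and did not overlap between the groups (limma adjusted p = 0.00193 and 0.00334). The other Mobp probe sets had 0.0067 and 0.12. Mbp rose by 3.37 on another probe set (limma adjusted p = 0.000877) and had -0.20 on its brightest, and the other genes that did not pass had values from -0.14 (Mal) to 0.15 (Opalin). RNA quality was read from beta-actin, as the log2 gap from its 5 prime to its 3 prime probe set. This gap was 3.02 ± 0.30 without myelin and 3.30 ± 0.32 with it (SD, n = 5 per group), with p = 0.190 by an exact permutation test, two-sided. The permutation test took no account of the pairs. With this gap as a covariate, Mrc1 had 0.70 and did not pass (limma adjusted p = 0.176). Of the other calls named here on the brightest probe set, those of Blvra, Slc1a3, Ccl22, Mmp9, Tnf and Ido1 were lost in this fit, and those of Il6, Mobp and Bcas1 were not.

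**Figure D5:**
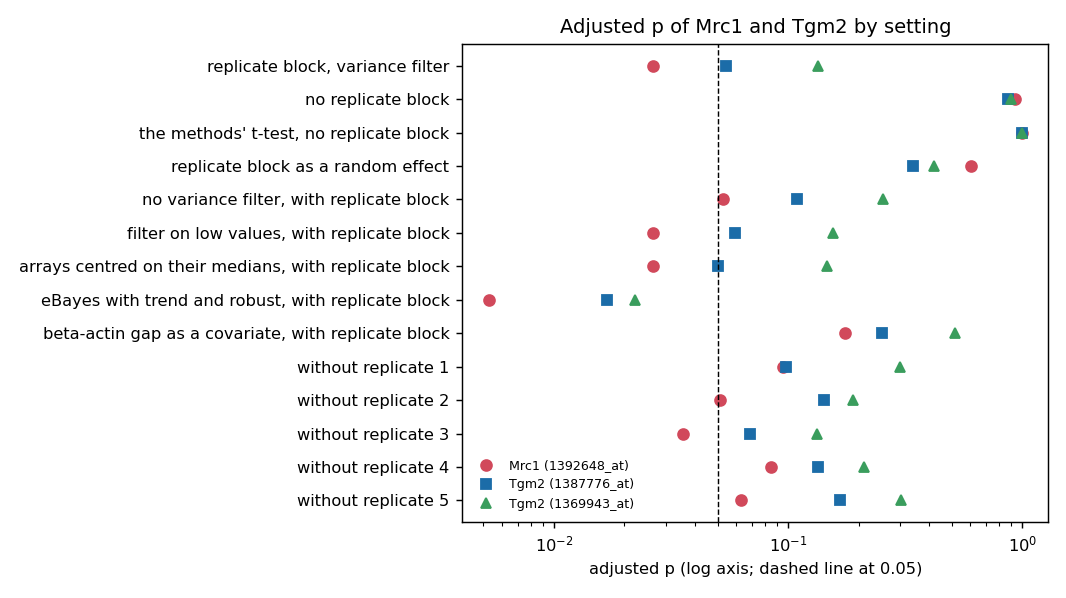
Adjusted p (x axis, log scale, dashed line at 0.05) of Mrc1 and of both Tgm2 probe sets under the reported fit and 13 other settings. Mrc1 lies under 0.05 in the reported fit and in 4 of the 13 others, and the Tgm2 probe sets in 1. Those of Mrc1 include trend and robust eBayes and the fit without the pair of replicate 3. Not all of the 13 settings are described in the text.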

How the data were processed

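The authors deposited log2 RMA values (background correction, quantile normalization and probe summary with the affy package) of 10 Affymetrix rat genome arrays, 1 per sample. They lie between -0.04 and 13.09, with array medians of 2.30 to 2.35, lower than usual for RMA for a reason not given in the sources used here. After 57 control probe sets were left out, 31042 probe sets were fitted with limma 3.58.1 (lmFit, eBayes) in R 4.3.3, blocked by replicate number, and p-values were adjusted by Benjamini-Hochberg over the 50% with the larger interquartile range. The methods name such a filter and an unpaired test, which was run as an alternative. Its p-values were adjusted here, a step that the methods do not name. Same-numbered samples deviated together (correlations of 0.404 to 0.791 over all probe sets, each over the threshold of 0.1, at most 0.279 across numbers); what a number stands for is not stated. Gene names come from the array's annotation, where 20826 probe sets have 1 symbol. Members and lists were chosen with earlier results of these data known. All member probe sets are reported, with called genes and up to 4 others per list, and 3 most alike genes per member. Smurf2, Chi3l1, Igf1, Ppargc1b, Il12a, Cxcl10, Gja1, Aldoc, Mbp, Mal, Opalin, Arg1, Nos2, Hmox1, Cpa3, Lyz2, Cd68, Cd14 and Gata6 are named outside this rule, after their values were seen. Leaving out 1 sample breaks its pair, so whole pairs were left out. The fit was tested on simulated data. The precision is limited by having 5 arrays per group.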

Additional observations from a re-analysis of the deposited data

Results flagged for a closer look

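In 2 of the 18 groups of 5 member values, 1 sample stood apart from the others by Dixon's criterion, which chance meets in about 1 of 20 groups. Clec10a in control macrophage replicate 2 was 6.51, with the nearest control at 7.67. The mye-macrophage sample of the same number was also 6.51. Cd163 in mye-macrophage replicate 4 was 2.81, with the nearest at 0.94, and the log2 fold change of Cd163 was -0.13 without this pair.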

How the results depend on the processing

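The number of member probe sets called higher, 1 in the blocked fit, was 0 without the replicate block, with the methods' t-test, with the replicate block as a random effect, without a variance filter, and in a fit that took the beta-actin gap as covariate, 3 with trend and robust eBayes, and 0 to 1 when 1 pair was left out. The number called lower was 0 throughout. All of these counts are at adjusted p-values, also those of the t-test, for which the methods name no adjustment. Over all probe sets, 123 were called higher and 295 lower with the block. Under the same settings in turn these were 0 and 0 without the replicate block, 0 and 0 with the methods' t-test, 4 and 7 with the random effect, 39 and 89 without a variance filter, 6 and 10 in the beta-actin fit, and 387 and 654 with trend and robust eBayes. With 1 pair left out they ran from 11 to 137 and from 20 to 522. Of 117 member values under the alternatives 113 kept their direction. The others were those of Cd163 (-0.13 without replicate 4), Tgfb1 (-0.0018 without replicate 3) and the bright Tgfbr1 probe set (0.040 in the beta-actin fit and 0.00042 without replicate 1), none of them called. With 1 pair left out, Cd163 ran from -0.13 to 0.35, Tgfb1 from -0.0018 to 0.084 and Tgfbr1 from -0.090 to 0.00042. The cause of these changes was not tested. The 27 list probe sets kept their direction in 351 of 351 values. The mean over both probe sets gave 0.26 for Tgm2 and 0.0015 for Tgfbr1.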
